A study of Mus musculus with 2 samples.

Results

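The transforming growth factor beta (TGF-beta) pathway was described through 9 genes chosen by name: the ligands Tgfb1, Tgfb2 and Tgfb3, the receptors Tgfbr1, Tgfbr2 and Tgfbr3, the latency protein gene Ltbp1, the induced matrix gene Tgfbi and the inhibitor Smad7. All 9 had a row among the 34097 genes of each library. Single-cell RNA was counted with the 10x Genomics platform, as unique molecular identifiers (UMIs, 1 per captured RNA molecule), in 2 mouse tumours grown from LLC, a line of Lewis lung carcinoma cells. The control library was made from an tumour labelled control, and the other, named the knockdown library below, from a tumour treated with an shRNA (short hairpin RNA) that targets Gfpt2. The labels call both a lung cancer xenograft and give no host strain, age, sex or tumour site, and they do not say what the control received or whether the line was 1 clone. With 1 library per group there was no spread between replicates to test against, so no p-value is given, and a difference is one between these 2 libraries.

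TGF-beta ligands are secreted in a latent form, bound to latent TGF-beta binding proteins such as the product of Ltbp1, and are released by integrins, proteases or matrix proteins. The free ligand binds the kinase receptors encoded by Tgfbr2 and Tgfbr1, with the co-receptor betaglycan (Tgfbr3) presenting it, and SMAD proteins carry the signal to the nucleus. In tumours the pathway is known for restraining T cells, for shaping macrophages and for driving matrix production by stromal and tumour cells. Smad7, itself induced by the signal, feeds back on the receptors.

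Cells were sorted into classes by a few transcripts that are not members. Macrophages had a summed C1qa, C1qb and C1qc level of at least 10 per 10000 UMIs, T cells a summed Cd3d, Cd3e and Cd3g level of at least 2 per 10000, and tumour-like cells had 0 Ptprc UMIs, Lyz2 under 5 per 10000 and at least 5000 UMIs. The control library held 3996 macrophages and the knockdown library 4580, with 835 and 799 T cells, and 4982 and 5215 tumour-like cells. Levels are given as CPM, the gene's UMIs per 1000000 UMIs summed over that class and library, and ranges are exact 95% Poisson intervals that cover counting error only. The log2 ratio is that of the knockdown over the control CPM, and its range is set by the ends of the pair of intervals. A gene counted as past 1.5-fold when it had at least 100 UMIs in 1 library and its ratio was at least 1.5 in either direction.

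Promoter sequence from RefSeq (build GRCm38.p6) was used for Tgfb1, Tgfb2, Tgfbi, Tgfbr1, Tgfbr2 and Ltbp1, as the 250 bases before the annotated start. Each window was searched on both strands for 5 motifs, and their shares were counted over the 32851 such windows of the table. The letters CAGAC, the core that SMAD proteins recognise, were in 42.2% of the windows. A GC box, GGGCGG, was in 32.7%. A TATA box, TATAAA, was in 12.4%. The AP-1 site TGAGTCA was in 4.46%. The cyclic AMP response element TGACGTCA was in 1.55%. Those of 3 members are shown, because Tgfb1 and Tgfb2 are ligands with unlike levels across the cells, and Tgfbi was the 1 member past 1.5-fold lower in the knockdown macrophages. Capitals mark each motif match, whichever strand it was on, so that a GC box of the opposite strand reads CCGCCC. The windows are chr7:25686752-25687001 (plus strand) for Tgfb1, chr1:186705990-186706239 (minus strand) for Tgfb2 and chr13:56609336-56609585 (plus strand) for Tgfbi, each written 5′ to 3′ on the strand of its gene.
Tgfb1: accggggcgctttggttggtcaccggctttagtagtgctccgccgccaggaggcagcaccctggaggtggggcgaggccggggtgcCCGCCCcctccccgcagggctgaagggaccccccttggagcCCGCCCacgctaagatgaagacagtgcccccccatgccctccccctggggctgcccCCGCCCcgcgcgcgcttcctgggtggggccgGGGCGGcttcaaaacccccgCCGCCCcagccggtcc
Tgfb2: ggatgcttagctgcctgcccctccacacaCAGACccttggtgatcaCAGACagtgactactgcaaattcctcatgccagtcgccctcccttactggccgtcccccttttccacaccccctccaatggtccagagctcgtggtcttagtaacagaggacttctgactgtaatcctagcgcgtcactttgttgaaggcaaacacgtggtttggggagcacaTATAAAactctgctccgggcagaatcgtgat
Tgfbi: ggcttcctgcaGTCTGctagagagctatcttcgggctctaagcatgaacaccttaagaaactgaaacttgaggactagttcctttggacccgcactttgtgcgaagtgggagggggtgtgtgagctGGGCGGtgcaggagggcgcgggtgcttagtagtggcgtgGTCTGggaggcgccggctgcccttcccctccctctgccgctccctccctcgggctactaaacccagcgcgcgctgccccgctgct
The Tgfb1 window was 75.2% G and C, against a median of 52.4% over all windows, and held 5 GC boxes and no TATA box. The Tgfb2 window, at 53.6% G and C, held 1 TATA box and 2 CAGAC matches. In the Tgfbi window there were 2 CAGAC matches and 1 GC box, at 62.4% G and C. No base lay in more than 1 motif. These matches describe the letters of the windows and are not binding sites measured here.

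Before the members, the hairpin's target was checked. Gfpt2, which encodes an enzyme of the hexosamine pathway, had 1.75 CPM (243 UMIs) over the kept control cells but 0.564 CPM (67 UMIs) over the knockdown cells, a log2 ratio of -1.63, and in tumour-like cells 2.04 against 0.636 CPM. The libraries held 165824226 UMIs in 11977 barcodes and 138402860 UMIs in 12853 barcodes, of which 10662 and 11450 were kept, and they shared 37 barcode sequences. Median depth differed: 5382 and 3968 UMIs in macrophages, 2527 and 2509 in T cells, and 18743.5 and 14711 in tumour-like cells. Macrophages had all 7 of their markers (C1qa, C1qb, C1qc, Csf1r, Adgre1, Cd68, Mrc1; summed 21200 and 17732.5 CPM) and T cells all 6 (Cd3d, Cd3e, Cd3g, Trac, Trbc2, Cd2; summed 3816 and 3661 CPM). Tumour-like cells were defined by what they lacked, and carried the 5 fibroblast markers Pdgfra, Dcn, Lum, Col1a1 and Col3a1 at a summed 2498 and 2798 CPM. In those cells Xist, transcribed from the inactive X chromosome, was at 2.86 and 4.04 CPM, against 493 and 390.1 CPM in macrophages.

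The 9 genes had unlike levels across the 3 cell classes. Tgfbi and Tgfbr1 were macrophage genes, Smad7 was highest in T cells, Tgfb1 was higher in both immune classes than in tumour-like cells, and Tgfb3, Tgfbr3 and Ltbp1 were highest in tumour-like cells. Tgfbr2 differed least between the classes. In the plot of levels by class, the 3 classes are separated for Tgfbi over a range of 2 orders of size.

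**Figure D1:**
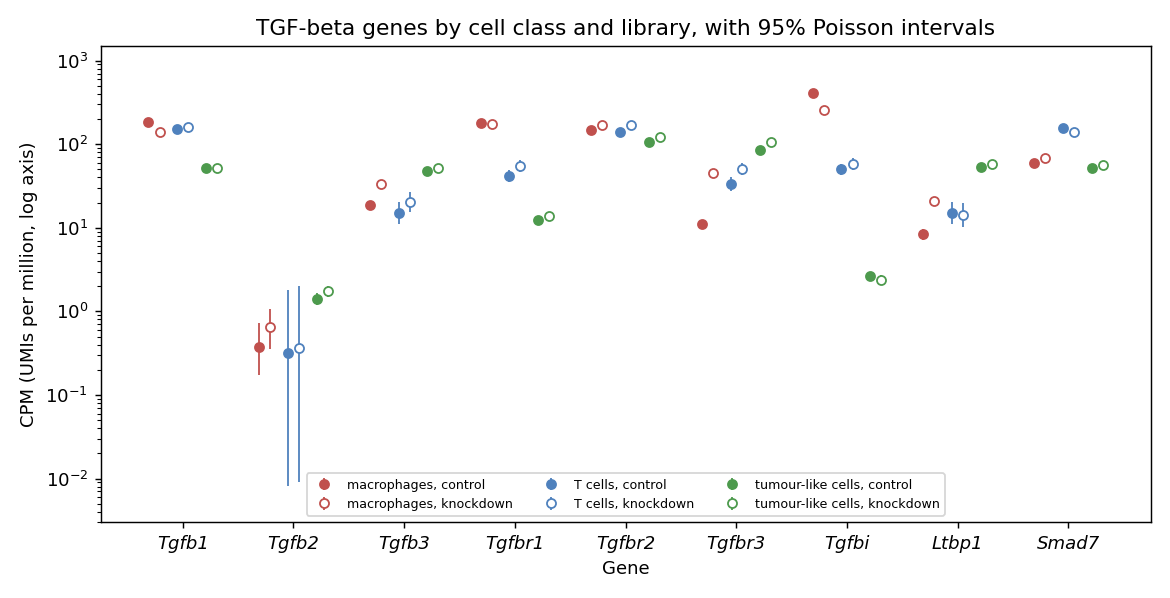
CPM of the 9 genes (log axis) in macrophages, T cells and tumour-like cells, filled for the control and open for the knockdown library, with 95% Poisson intervals as bars. Tgfbi spans 2.67 to 409 CPM across the control classes, while Tgfbr2 stays between 107 and 149 CPM.

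Among the ligands, Tgfb1, the main isoform of immune cells, had 183 CPM in control and 140.0 CPM in knockdown macrophages, 151 and 159.8 CPM in T cells, and 51.7 and 51.5 CPM in tumour-like cells. The intervals of the libraries did not overlap in macrophages and overlapped in the other classes. Because tumour-like cells held most of the RNA, they still contributed 49.2% of the control library's and 53.7% of the knockdown library's Tgfb1 UMIs, and macrophages 40% and 36.1%. Tgfb2, an isoform best known from development, was scarce everywhere: 172 and 185 UMIs in all kept cells, of which 146 and 153 came from tumour-like cells (1.41 and 1.74 CPM, with overlapping intervals). Macrophages had 9 and 14 Tgfb2 UMIs and T cells 1 in each library, too few to compare. Tgfb3, an isoform of mesenchymal cells, had 48.2 and 51.8 CPM in tumour-like cells, 18.9 and 33.6 CPM in macrophages, and 15.1 and 20.5 CPM in T cells. Tumour-like cells held 84.2% and 80% of its UMIs.

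Ltbp1, which tethers latent ligand to the matrix, was highest in tumour-like cells, as was Tgfb3. It had 53.0 and 58.6 CPM in tumour-like cells, 8.36 and 21.1 CPM in macrophages, and 15.1 and 14.4 CPM in T cells. The macrophage level was below that of T cells in the control library, with intervals apart, and overlapped it in the knockdown library, and 87.8% and 85.1% of its UMIs were in tumour-like cells.

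Of the receptors, Tgfbr1, the type I kinase that phosphorylates SMADs, had 181 and 175 CPM in macrophages with overlapping intervals, 41.9 and 55.4 CPM in T cells, and 12.5 and 13.9 CPM in tumour-like cells. Tumour-like cells thus stood at 6.92% and 7.95% of the macrophage level. Tgfbr2, the type II kinase that binds the ligand, had 149 and 171 CPM in macrophages, 142 and 171 CPM in T cells, and 107 and 121 CPM in tumour-like cells. Macrophage and T cell intervals for Tgfbr2 overlapped within each library, and both classes lay above tumour-like cells. Tgfbr3 had 85.1 and 106 CPM in tumour-like cells, 33.8 and 51.1 CPM in T cells, and 11.0 and 45.4 CPM in macrophages. In the control library the 3 classes were separated for Tgfbr3, while in the knockdown library the macrophage and T cell intervals overlapped.

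Tgfbi, a secreted matrix protein first found as a TGF-beta induced transcript, had 409 CPM (401 to 417) in control and 258 CPM (251 to 265) in knockdown macrophages. Macrophages held 90.8% and 94.6% of its UMIs. In tumour-like cells it was at 2.67 and 2.37 CPM, which is 0.651% and 0.92% of the macrophage level. The macrophage gene C1qa was at 0.578% and 0.779% of its macrophage level in the same cells, and Lyz2, which the class rule capped, at 0.595% and 0.826%. The Tgfbi level of tumour-like cells was therefore near the background that macrophage transcripts gave there. In T cells Tgfbi had 50.2 and 58.3 CPM, and in T cells that met no other class rule 14.5 and 5.58 CPM, from 35 and 10 UMIs.

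Smad7, which blocks the type I receptor, had 157 and 141 CPM in T cells, 60.2 and 67.8 CPM in macrophages, and 51.8 and 55.9 CPM in tumour-like cells. T cells stood above both other classes in each library. Among the T cells of 1 class its level was 165 and 167 CPM.

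Shares of cells were compared after each cell was thinned to 2000 UMIs, leaving out 605 control and 985 knockdown macrophages and 291 and 299 T cells that were shallower. Tgfb1 was detected in 30.4% and 24.6% of thinned macrophages, 26.1% and 27.4% of T cells, and 9.39% and 9.93% of tumour-like cells, with unthinned shares of 56.2% and 40.8%, 38.1% and 34%, and 58.6% and 52.2%. Thinning put the classes in the order of their CPM, which the unthinned shares, with deeper tumour-like cells, did not. Tgfbi was detected in 47.7% and 36.5% of thinned macrophages (unthinned 67% and 49.4%) against 0.642% and 0.556% of tumour-like cells (unthinned 4.84% and 3.76%), the class used as background for it. Tgfbr2 was detected in 20% and 22.1% of thinned tumour-like cells (unthinned 72.7% and 72%), 25.8% and 28.3% of macrophages (unthinned 51.2% and 47.5%) and 27% and 25.8% of T cells (unthinned 33.9% and 37%). For Smad7 the thinned shares were 26.5% and 24.6% of T cells, 10.5% and 11.7% of macrophages, and 9.98% and 9.89% of tumour-like cells (unthinned 37.7% and 35.2%, 24.7% and 23.4%, and 55.1% and 51.6%). No class lacked Tgfb1, Tgfbr2 or Smad7 enough to serve as a background for them.

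Cells with UMIs of both kinase receptors, Tgfbr1 and Tgfbr2, made up 31.3% of control and 25.5% of knockdown macrophages, 15.9% and 14.6% of tumour-like cells, and 4.91% and 7.76% of T cells. Cells with both receptors and the ligand Tgfb1 were 872 of 3996 control macrophages (21.8%) and 614 of 4580 knockdown macrophages (13.4%). Among tumour-like cells they were 10.8% and 8.61%, and among T cells 3.35% and 4.01%. These shares were not thinned, so they move with the depths given above.

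In tumour-like cells, none of the 9 members differed past 1.5-fold between the libraries. All 9 had at least 100 UMIs. The background was 2.27% of 12378 genes higher and 0.751% lower in the knockdown library. The largest log2 ratio was that of Tgfbr3, 0.32 (0.26 to 0.38), from 8816 and 9332 UMIs. Tgfbr2 followed among the well-counted genes with 0.18 (0.12 to 0.23), then Tgfbr1 with 0.15 (-0.01 to 0.31) and Ltbp1 with 0.14 (0.07 to 0.22). Smad7 had a ratio of 0.11 (0.03 to 0.19) and Tgfb3 of 0.10 (0.02 to 0.18). Tgfb1 was level, at -0.01 (-0.09 to 0.07), and the ratios of the scarce Tgfb2, 0.30 (-0.17 to 0.77), and Tgfbi, -0.17 (-0.54 to 0.20), had ranges that held 0. Ratios were above 0 for 7 of the 9 members, with a median of 0.14 against 0.04 over all genes tested. The share of all tested genes above 0 was not counted. Scaling by TMM (trimmed mean of M values) would lower each ratio by 0.07.

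Of the 3 classes, macrophages showed the widest differences. Tgfbr3 had a log2 ratio of 2.04 (1.78 to 2.31) from 262 and 987 UMIs, Ltbp1 of 1.34 (1.00 to 1.68) from 199 and 460 UMIs, and Tgfb3 of 0.83 (0.59 to 1.07) from 451 and 730 UMIs. These 3 of the 8 members with 100 UMIs were past 1.5-fold higher, where the background was 10.7% of 10773 genes. Tgfbi alone was past 1.5-fold lower, with a log2 ratio of -0.66 (-0.73 to -0.60), where the background was 1.31%. Without doublet removal Ltbp1 was at 0.37 and Tgfb3 at 0.49, short of 1.5-fold, and Tgfbr3 was at 0.74. With every cell weighted equally Ltbp1 was at 0.51 and Tgfbi at -0.56, also short of it. Tgfbi was short of it too with Scrublet's own doublet threshold (-0.50) and with a C1q minimum of 20 (-0.58) or 50 (-0.42) per 10000, and Tgfb3 with the minimum of 50 (0.58). Tgfb1 was lower by less, at -0.38 (-0.48 to -0.29), while Tgfbr2 was at 0.20 (0.11 to 0.29), Smad7 at 0.17 (0.02 to 0.32) and Tgfbr1 at -0.05 (-0.14 to 0.04). The median of the 8 was 0.19, against 0.10 over all genes tested.

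The 3 members past 1.5-fold higher in the knockdown macrophages were genes whose class level was highest in tumour-like cells. Markers of other cells moved with them. The 5 fibroblast markers, all detected in both libraries, summed to 286 CPM in control and 809 CPM in knockdown macrophages, and Hmga2, a chromatin gene with 220.2 and 218 CPM in tumour-like cells, stood at 32.9 and 88.3 CPM. The macrophage level of Tgfbr3 was 12.9% (control) and 42.8% (knockdown) of the tumour-like level, that of Ltbp1 15.8% and 36.1%, that of Tgfb3 39.3% and 64.8%, that of Hmga2 14.9% and 40.5%, and that of Pdgfra 9.76% and 35.4%. A UMI of a fibroblast marker or of Hmga2 was present in 1861 of the control and 2594 of the knockdown macrophages.

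When those cells were left out, 2135 control and 1986 knockdown macrophages remained, and in them none of the 6 members with 100 UMIs was past 1.5-fold, where the background was 1.32% of 8421 genes higher and 1.75% lower. Tgfbr3 was at 4.51 and 6.45 CPM (51 and 49 UMIs) and Ltbp1 at 3.80 and 5.52 CPM (43 and 42 UMIs), each with overlapping intervals. Tgfb3 was at 17.6 and 21.7 CPM, also with overlapping intervals. Tgfb1 kept a lower value in the knockdown library, 199 against 172 CPM, a log2 ratio of -0.21 (-0.35 to -0.07). Tgfbr1 was at 198 and 230.1 CPM, a ratio of 0.22 (0.09 to 0.35), where the range in all macrophages had held 0. Tgfbr2 was at 155 and 174 CPM and Smad7 at 61.4 and 69.6 CPM, with ratios of 0.17 and 0.18.

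Tgfbi remained lower in these macrophages of the knockdown library, at 449 CPM (437 to 461) against 352 CPM (339 to 366), a log2 ratio of -0.35 (-0.45 to -0.26). In the macrophages that did carry such UMIs it was at 373 and 208 CPM. Thinned to 2000 UMIs, 49.9% of the control and 44.4% of the knockdown macrophages without such UMIs had a Tgfbi UMI (unthinned 67.4% and 55.4%), with 331 and 525 shallower cells left out. The intervals of those thinned shares, 47.6% to 52.2% and 41.8% to 46.9%, did not overlap. At 5000 UMIs, with more shallow cells left out, the shares were 75.7% (73.0% to 78.2%) and 70.1% (66.2% to 73.9%). Those intervals overlapped, so their separation depended on the thinning depth. The difference in Tgfbi was thus smaller in cells without fibroblast-marker or Hmga2 UMIs, and its direction was the same. The 3 monocyte markers, all detected, summed to 120.2 and 87.6 CPM in these cells. The 6 T cell markers summed to 72.6 and 101 CPM, the 3 endothelial markers to 17.8 and 32.4 CPM and the 3 NK markers to 3.004 and 8.68 CPM, all detected. The part of these markers in the Tgfbi difference was not tested.

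**Figure D2:**
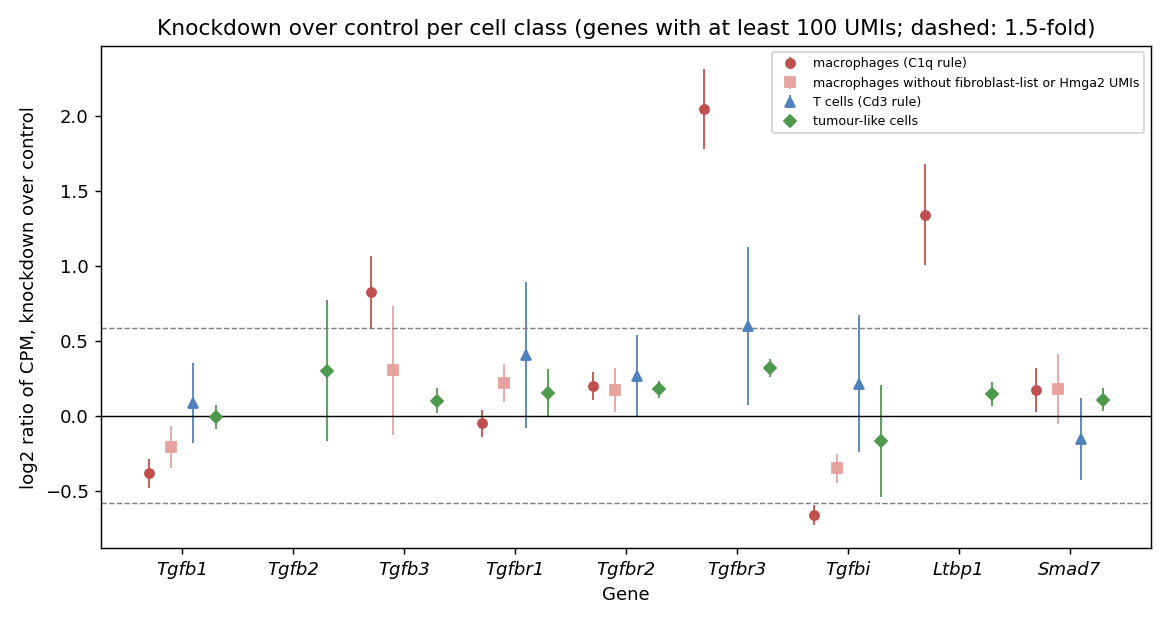
Log2 ratio of CPM, knockdown over control, for each member with at least 100 UMIs in macrophages (circles), macrophages without fibroblast-marker or Hmga2 UMIs (squares), T cells (triangles) and tumour-like cells (diamonds); bars are the ranges allowed by the 95% Poisson intervals, and dashed lines mark 1.5-fold. Tgfbr3 and Ltbp1 reach 2.04 and 1.34 in all macrophages and have no square, since they had under 100 UMIs without those cells, and Tgfbi lies below 0 in both macrophage sets.

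The plot of ratios by class shows the macrophage circles of Tgfbr3, Ltbp1 and Tgfb3 above the upper dashed line, and all diamonds of the tumour-like cells inside the lines. In T cells, Tgfbr3 was the 1 member of 6 with 100 UMIs past 1.5-fold, at 0.60 (0.07 to 1.12) from 105 and 142 UMIs, where the background was 2.61% of 5207 genes higher and 0.903% lower. It fell short of 1.5-fold without doublet removal (0.58), with Scrublet's own doublet threshold (0.49) and with scaling by the median of ratios or by TMM (each 0.56). Tgfbr1 was at 0.41 (-0.08 to 0.89), Tgfbr2 at 0.27 (0.00 to 0.54), Tgfbi at 0.22 (-0.24 to 0.67), Tgfb1 at 0.08 (-0.18 to 0.35) and Smad7 at -0.15 (-0.43 to 0.12). The T cell ranges of Tgfbr1, Tgfbi, Tgfb1 and Smad7 held 0, and the median of the 6 was 0.24 against 0.02 over all genes tested.

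Macrophage transcripts moved with those T cell values: the 7 macrophage markers, all detected, summed to 2274 CPM for the control library's T cells and 3347 CPM for the knockdown's, and 160 and 235 cells met both rules. In the 670 and 555 T cells of 1 class those markers summed to 272 and 224 CPM. There Tgfbr3 was at 36.0 and 40.2 CPM from 87 and 72 UMIs, Tgfbr1 at 19.0 and 26.8 CPM from 46 and 48 UMIs, Tgfb1 at 155 and 171 CPM, Tgfbr2 at 148 and 167 CPM, and the intervals of the libraries overlapped for each. In the 416 and 354 of them without fibroblast-marker or Hmga2 UMIs, Tgfbr3 was at 17.7 and 11.8 CPM from 21 and 11 UMIs, Ltbp1 at 3.36 and 4.29 CPM from 4 UMIs in each library, and Tgfb3 at 5.04 and 3.22 CPM. Smad7 was at 196 and 213 CPM in those cells, Tgfb1 at 159.7 and 186 CPM and Tgfbr2 at 150.5 and 178 CPM. In these cells the levels of Tgfb1, Tgfbr2 and Smad7 were above those of all T cells, and those of Tgfbr3, Ltbp1 and Tgfb3 were below them. The control Tgfb1 level lay inside the interval of all control T cells (137 to 165 CPM), of which these cells are a part. The Tgfbr2 level of each library lay inside that of all its T cells (129 to 156 and 156 to 187 CPM).

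Most T cells with a subset marker were CD8 T cells, 414 control and 334 knockdown cells. In them Tgfb1 was at 148 and 169.9 CPM, Tgfbr2 at 149 and 168 CPM, Smad7 at 148 and 144 CPM, and Tgfbr1 at 17.7 and 24.5 CPM. The CD4 cells without Foxp3, 35 and 22 cells, had 17 Smad7 UMIs in each library (201 and 254 CPM) and 13 and 12 Tgfb1 UMIs. Cells with Foxp3, the regulatory T cell factor, numbered 19 and 14 and had 11 and 5 Tgfb1 UMIs. These counts are too small to order the subsets.

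Myeloid cells outside the macrophage class were gated on monocyte markers (Ly6c2, Plac8 and Ccr2, at least 5 per 10000 UMIs). The 174 control cells had 460 CPM of Tgfbi (370 UMIs) and the 101 knockdown cells 77.0 CPM (44 UMIs), with intervals far apart. The makeup of the gated cells also differed: the 3 monocyte markers, all detected, summed to 2693 and 1805 CPM, the 3 natural killer (NK) cell markers Ncr1, Klrb1c and Klre1 to 132 and 392 CPM, and Lyz2 was at 5286 and 2106 CPM. In the 97 and 24 of them with both Ly6c2 and Lyz2 UMIs, Tgfbi was at 695 CPM (620 to 778) and 312 CPM (215 to 438), from 306 and 33 UMIs, a log2 ratio of -1.16 (-1.86 to -0.50). Markers of other cells differed in this subset too: the NK markers summed to 2.27 and 56.7 CPM (Ncr1 at 0 in both libraries, Klrb1c in the control), the 5 fibroblast markers to 543 and 955 CPM (4 and 3 detected), and the 7 macrophage markers, all detected, to 811 and 567 CPM. The monocyte markers summed to 3575 and 3178 CPM. Their part in the Tgfbi difference was not tested. The control value of Tgfbi was its highest level in any group of cells that was measured. Tgfb1 in the monocyte-gated cells, 269.7 and 294 CPM, had overlapping intervals. The cells outside the 3 classes gated on the NK markers (at least 2 per 10000 UMIs), 55 and 48 in number, had the highest Tgfb1 level, 388 and 446 CPM with overlapping intervals, and 0 Tgfbi UMIs in either library, which allows up to 10.3 and 11.2 CPM at 3 counts.

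Within macrophages, states were taken as the cells in the highest 10% of both libraries by a summed marker level. Tgfbi was at 314 and 283 CPM in the interferon-response Ifit state (288 and 570 cells) and at 257 and 228 CPM in the Trem2 state (518 and 340 cells), with Trem2, Apoe and Gpnmb as markers. Its intervals overlapped between the libraries in both states. Tgfbr1 was at 195 and 288 CPM in the Ifit state, with intervals apart, and at 175 and 172 CPM in the Trem2 state. In the Ifit state the 3 monocyte markers, all detected, summed to 89.0 and 42.1 CPM and the 3 NK markers to 1.36 and 5.96 CPM (Klrb1c at 0 in the control), and their part in the Tgfbr1 difference was not tested. Tgfb1 was at 142 and 145 CPM in the Ifit state and at 202 and 189.9 CPM in the Trem2 state, with intervals that overlapped between the libraries and were apart between the states in each library. Smad7 was lower in the Trem2 state, 35.3 and 49.5 CPM, than in the Ifit state, 90.4 and 111 CPM, with intervals apart in each library.

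**Figure D3:**
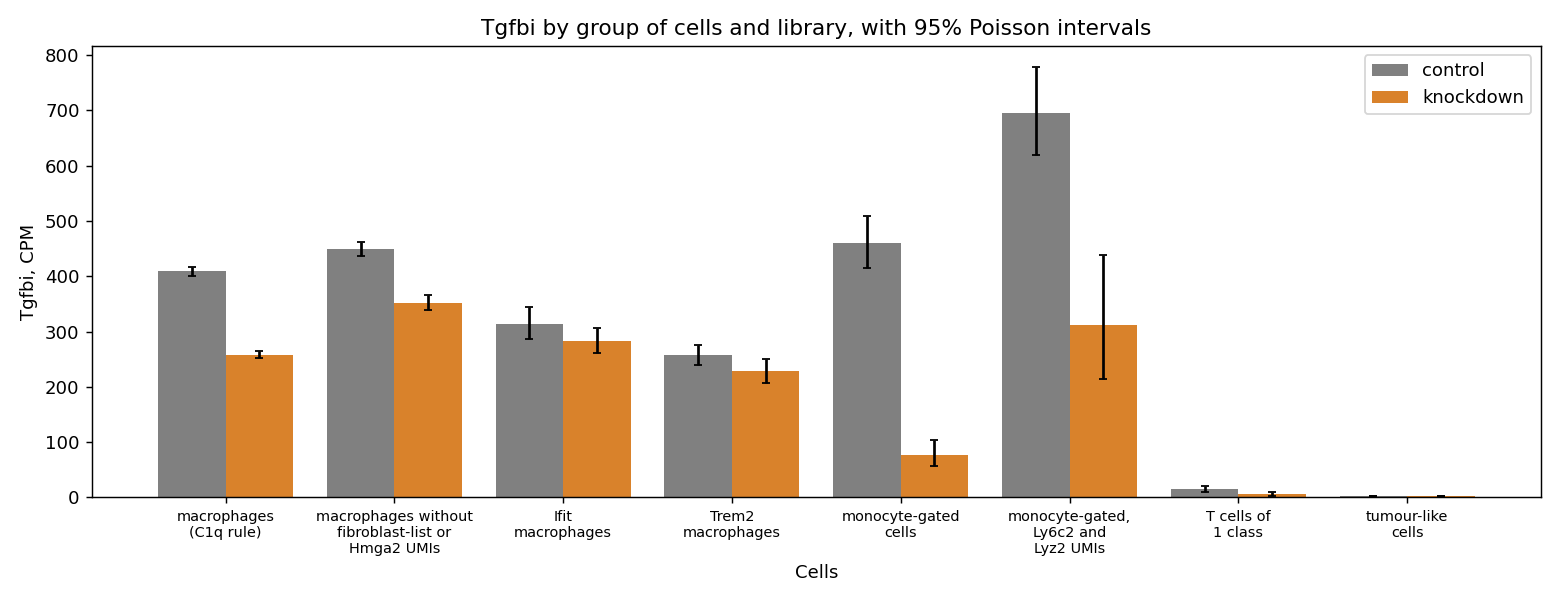
Tgfbi level (CPM, linear axis from 0) by group of cells, grey for the control and orange for the knockdown library, with 95% Poisson intervals as error bars. The knockdown bar is lower in each macrophage and monocyte-gated group shown, with overlapping intervals in the Ifit and Trem2 states, and T cells of 1 class and tumour-like cells lie near 0.

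In the plot of Tgfbi by group of cells, the control bar of the Trem2 state is below that of the Ifit state, and the highest is that of the monocyte-gated cells with Ly6c2 and Lyz2. The groups plotted held from 24 cells (knockdown, monocyte-gated with Ly6c2 and Lyz2) to 5215 cells (knockdown, tumour-like).

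Tumour-like cells were split further by 6 marker sets, each state being the cells in the highest 10% of the pooled class by summed marker level that also had at least 2 UMIs of the markers. The 2-UMI limit left the Csmd3 Robo2 state at 7.01% and 8.82% of the class in the control and knockdown library, and the Krt16 Klk8 state, where it alone set the choice, at 7.11% and 2.34%. A cell could be in more than 1 state, as 494 control and 428 knockdown cells were, and 2897 and 3011 cells were in none. Tgfb3 was highest in the matrix state (markers Col1a1, Col1a2 and Col3a1; 468 and 552 cells), at 146 and 135 CPM, against 46.3 and 47.4 CPM in cells of no state. Tgfbr3 reached 239 and 234 CPM in that state, compared with 82.7 and 102 CPM, and Tgfbr2 at 210.5 and 230.3 CPM against 111 and 116 CPM. The matrix state over no state log2 ratios were 1.66 (1.52 to 1.81) and 1.51 (1.36 to 1.67) for Tgfb3, 1.53 (1.42 to 1.64) and 1.20 (1.09 to 1.31) for Tgfbr3, and 0.92 (0.81 to 1.03) and 0.99 (0.88 to 1.10) for Tgfbr2. Ltbp1 was higher in the matrix state in the control library, 74.5 against 55.5 CPM, and not in the knockdown library, 56.2 against 63.8 CPM.

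The matrix cells also carried other markers. The 5 fibroblast markers, of which Col1a1 and Col3a1 were used to choose the state, summed to 10919.5 and 9919 CPM, with all 5 detected. Xist was at 3.07 and 4.72 CPM in the matrix state and 3.17 and 4.24 CPM in cells of no state. Pericyte markers (Rgs5, Cspg4 and Notch3) summed to 26.6 CPM in the control, with Rgs5 and Notch3 at 0, and to 39.4 CPM in the knockdown library. Of the endothelial markers Pecam1, Cdh5 and Kdr, summing to 1.46 and 1.52 CPM, Kdr was at 0 in both libraries and Cdh5 in the knockdown. The 3 monocyte markers, all detected, summed to 56.1 and 50.8 CPM in the matrix state and to 12.1 and 15.9 CPM in cells of no state. The part of these markers in the matrix state's levels was not tested.

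Smad7 did not follow the ligand Tgfb3 across the states. It was at 37.7 and 38.5 CPM in the matrix state, below the 52.5 and 53.6 CPM of cells in no state, and at 64.1 and 75.0 CPM in the Cryab Krt14 state (377 and 643 cells). The Cryab Krt14 state in turn had low Tgfb3, 27.0 and 27.3 CPM, low Tgfbr3, 46.0 and 58.3 CPM, and low Ltbp1, 37.8 and 42.7 CPM. The Tnnt2 Tafa5 state (652 and 334 cells) had Tgfb3 at 23.3 and 28.6 CPM, Tgfbr3 at 41.9 and 48.5 CPM and Smad7 at 56.5 and 64.1 CPM, where the control ratio to cells of no state, 0.11 (-0.04 to 0.25), held 0. In the Csmd3 Robo2 state (349 and 460 cells), Tgfb3 was at 67.2 and 91.0 CPM, Tgfbr3 at 132 and 178 CPM, and Smad7 at 35.0 and 47.2 CPM. In the control Krt16 Klk8 state both were below cells of no state, Tgfb3 at 38.2 CPM, a log2 ratio of -0.28 (-0.49 to -0.07), and Smad7 at 40.6 CPM, a ratio of -0.37 (-0.58 to -0.17). In the knockdown library that state had 26.7 CPM of Tgfb3, a ratio of -0.83, and 59.2 CPM of Smad7, a ratio of 0.14 (-0.14 to 0.42). Tgfb1 stayed between 43.3 and 54.6 CPM over all states of both libraries.

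**Figure D4:**
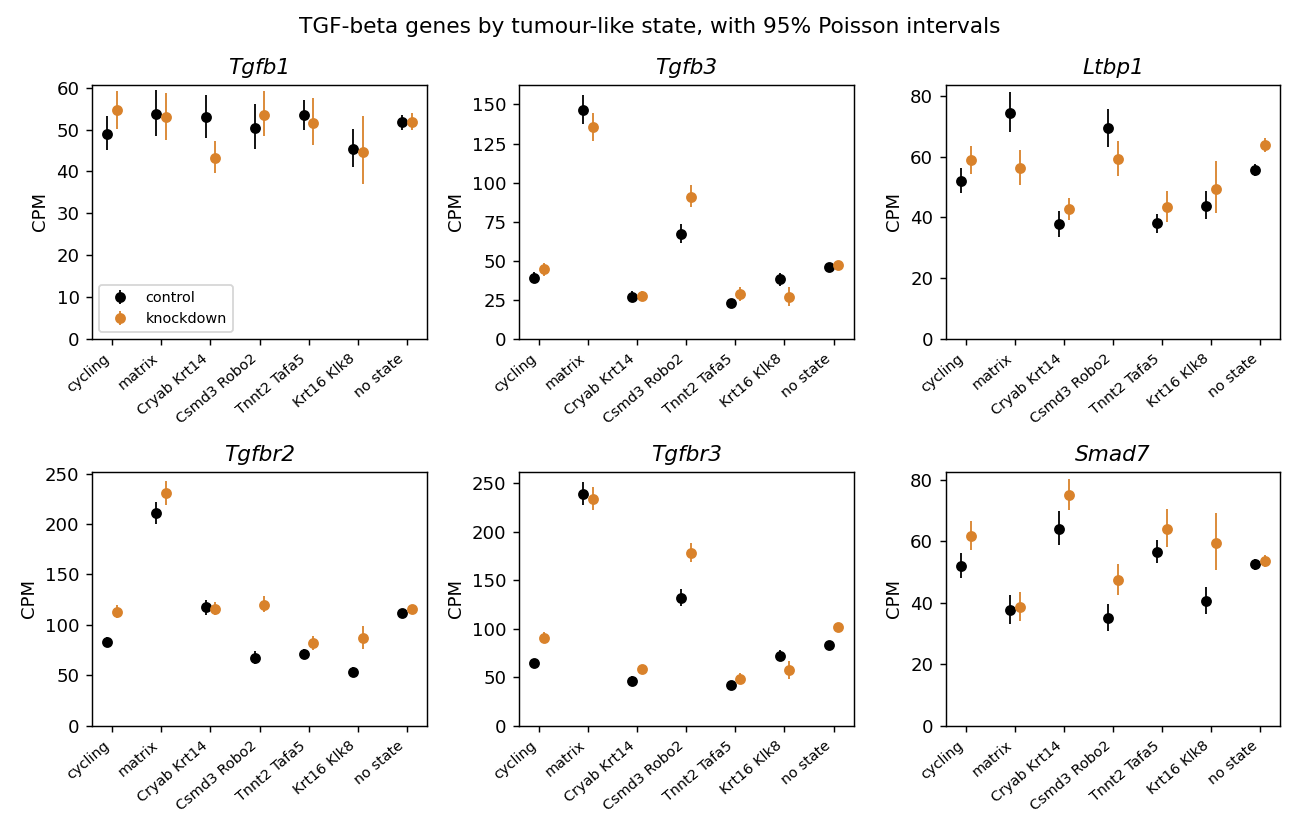
CPM of 6 members by tumour-like state, black for the control and orange for the knockdown library, with 95% Poisson intervals; each panel has its own linear axis from 0. Tgfb3, Tgfbr2 and Tgfbr3 peak in the matrix state (146, 210.5 and 239 CPM in the control), where Smad7 is at 37.7 CPM, and Tgfb1 is nearly level.

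The panels by tumour-like state also show where the libraries differed within a state. In Csmd3 Robo2 cells Tgfbr2 had 67.6 CPM (control) and 120.2 CPM (knockdown), a log2 ratio of 0.83 (0.60 to 1.06). It was at 53.4 and 86.7 CPM in the Krt16 Klk8 cells, a ratio of 0.70 (0.38 to 1.02). Tgfb3 (0.44, 0.20 to 0.68), Tgfbr3 (0.43, 0.26 to 0.61) and Smad7 (0.43, 0.09 to 0.77) were also higher in the knockdown Csmd3 Robo2 cells. Ltbp1 was at -0.23 (-0.50 to 0.04) there. In the knockdown Krt16 Klk8 cells Smad7 was higher, at 0.55 (0.16 to 0.92), and Tgfb3 lower, at -0.52 (-1.02 to -0.03). The share of all genes past 1.5-fold within a state was not counted. The Csmd3 Robo2 and Krt16 Klk8 states had the most Gfpt2 in the control, 14.4 and 17.2 CPM, against 0.829 and 2.19 CPM in the knockdown library. The Krt16 Klk8 state had 354 control and 122 knockdown cells. Markers of other cells and of the matrix state differed in both states. The summed pericyte markers were at 112 and 41.8 CPM in the Csmd3 Robo2 state (Rgs5 at 0 in both libraries, Notch3 in the control) and at 142 and 91.0 CPM in the Krt16 Klk8 state (Rgs5 and Notch3 at 0 in the control). The 5 fibroblast markers summed to 5105 and 4112 CPM in the Csmd3 Robo2 state (5 detected) and to 1906 and 1956 CPM in the Krt16 Klk8 state (4 and 5 detected, Lum at 0 in the control). The median level of the 3 matrix markers per cell was 15.97 and 22.8 per 10000 UMIs in the Csmd3 Robo2 state and 1.61 and 6.21 in the Krt16 Klk8 state. The part of Gfpt2 and of these markers in the differences of these states was not tested. In cycling cells (Mki67, Top2a and Cenpf; 459 and 561 cells) Tgfbr2 was at 82.8 and 113 CPM and Tgfbr3 at 64.5 and 90.5 CPM. The median level of the 3 matrix markers in the cycling cells was 3.91 and 7.43 per 10000 UMIs. Endothelial markers summed to 2.00 and 6.17 CPM in them, with Kdr at 0 in the control. The part of these markers was not tested. Tgfbr2 was level between the libraries in the Cryab Krt14 state, 117 and 116 CPM, and close in cells of no state, with a ratio of 0.06 (-0.02 to 0.13). Whether the states' differences stand apart from one another beyond a spread between tumours was not tested, since each state had 1 library per group.

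Other genes of the pathway were read from 5 lists, described by counts beside the background percentages above. In tumour-like cells 18 of 20 tested transcriptional targets (22 listed) had ratios above 0, a share not counted over all genes. Their median was 0.20, against 0.04 over all genes tested. Of the 20, 3 were past 1.5-fold higher and 0 lower. They were Acta2, smooth muscle actin, at 1.43 and 3.84 CPM (log2 ratio 1.43), Col1a2, a collagen I chain, at 4.78 and 9.78 CPM (1.03), and Tnc, the matrix protein tenascin C, at 6.39 and 13.0 CPM (1.02). The lowest ratios among the targets were those of Snai1, a repressor of epithelial genes, at -0.31 (67.3 and 54.2 CPM) and Ldlrad4 at -0.06. Fn1, fibronectin, had 709 and 1012 CPM, a ratio of 0.51. Of 12 tested genes of latency and activation (15 listed), 2 were higher and 0 lower: Thbs1, thrombospondin 1, at 3.17 and 5.18 CPM (0.71), and Itgb8, an integrin chain that releases latent ligand, at 5.03 and 7.70 CPM (0.61). The lowest in that list were Itgb5 at -0.20 and Itgb1 at -0.07.

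None was past 1.5-fold among 6 tested related ligands and antagonists (13 listed, median 0.26), 9 other receptors (10 listed, median 0.06) or 14 transducers and regulators (16 listed, median 0.06) in tumour-like cells. Inhba, the activin A subunit, was the highest of the related ligands, at 79.1 and 108 CPM (0.45), followed by Gdf11 (0.36), and Fstl3 (0.01) and Bmp1 (0.16) were the lowest. Among receptors Eng, endoglin, was at 0.45 and Bambi, a decoy receptor, at 0.31, with Acvr2b at -0.07 and Bmpr2 at 0.03. Smad6 (0.28) and Smad1 (0.17) were the highest of the transducers, and the signal-carrying Smad2 (-0.10) and Zfyve9, the receptor anchor SARA (-0.06), the lowest.

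In macrophages by the C1q rule, 10 of 18 tested targets were higher and 0 lower, led by Col1a2 (2.69) and Ccn1 (2.05), with Id1 (-0.42) and Cdkn1a (-0.25) the lowest; the others past the fold were Col1a1 (2.05), Tnc (1.72), Postn (1.68), Snai2 (1.68), Col3a1 (1.60), Cdkn2b (1.30), Snai1 (1.23) and Id3 (0.83). Of 11 tested genes of latency and activation, 3 were higher (Fbn1 at 1.77, Dcn at 1.30 and Ltbp4 at 1.29) and 0 lower, with Furin (-0.37) and Nrros (-0.27) the lowest. Of 6 related ligands and antagonists, 5 were higher (Gdf11 at 1.88, Inhba at 1.67, Fstl3 at 1.64, Fstl1 at 1.63 and Bmp1 at 1.43) and Gdf15, a stress-induced family member, was lower (-0.72). Of 8 other receptors, 2 were higher (Bmpr1a at 1.97 and Acvr1 at 0.71), and Eng (-0.04) and Acvrl1 (-0.01) were the lowest. Of 13 transducers, 2 were higher (Zfyve9 at 1.12 and Smad5 at 0.59), and Ski (-0.37) and Tgif1 (-0.13) were the lowest. Dcn, Col1a1 and Col3a1 are among the fibroblast markers that moved with these macrophages, and Fstl1 was higher in tumour-like cells, at 534 and 618 CPM against 63.4 and 196 CPM in macrophages.

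In macrophages without fibroblast-marker or Hmga2 UMIs, Col1a1, Col3a1 and Dcn had 0 UMIs because the choice of cells used them, and fewer genes reached 100 UMIs, so the counts are not set against those of all macrophages. There 0 of 10 tested targets were higher and 2 were lower: Id1, a SMAD-responsive inhibitor of differentiation, at 18.8 and 8.68 CPM (-1.12), and Fn1 at 259 and 157 CPM (-0.73). Fn1 was higher in the knockdown library in all macrophages (0.40), so its direction turned between the sets. Postn had the highest ratio of the 10 tested targets in the macrophages without those UMIs (0.27), with an interval from -0.32 to 0.85. One of 9 tested genes of latency and activation was higher, Fbn1, fibrillin 1, at 13.0 and 19.7 CPM (0.60), followed by Itgav (0.54), and Emilin1 (-0.41) and Furin (-0.23) were the lowest. None was past the fold among 2 related ligands (Fstl1 at 0.47, Gdf15 at -0.42), 6 other receptors, with ratios from 0.25 for Bmpr2 and 0.30 for Acvrl1 to 0.37 for Bambi and 0.38 for Eng, and 11 transducers, from -0.20 for Ski and -0.03 for Smad4 to 0.15 for Skil and 0.38 for Smad3.

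In T cells 1 of 10 tested targets was higher, Ccn1, a matricellular protein, at 32.8 and 54.0 CPM (0.72), followed by Postn (0.50), with Junb (-0.13) and Id2 (-0.01) the lowest. None of 7 genes of latency and activation was past the fold, with Itgav (0.48) and Fbn1 (0.33) the highest and Dcn (-0.42) and Itgb1 (-0.32) the lowest. The same was so for 9 transducers, from Ppm1a (-0.34) and Smad2 (-0.18) to Tgif1 (0.17) and Skil (0.19), and for Fstl1 (0.21), the only related ligand or antagonist tested. None of the 10 other receptors had 100 UMIs in T cells.

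The gene pairs most alike in level were sought over 15 groups of cells in 2 libraries (30 points), by Pearson's r of log2(CPM + 1) among 13425 genes. The groups share libraries and some share cells, and so r only describes these points. Tgfbi was most like Ccr1 (r = 0.98), Igsf6 (0.97) and Ptafr (0.96), and Tgfbr1 like Cd180 (0.96), Lyz2 (0.95) and Ctss (0.95). Tgfb1 was most like Sh3bgrl3, Runx3 and Mcts1 (0.96 each), and Smad7 like Smchd1 (0.90), Smndc1 (0.89) and Scml4 (0.89). For Tgfb3 the nearest genes were Zcchc24, Tceal8 and Creb3l2 (0.93 each), for Tgfbr3 Cacna2d1 (0.96), Zbtb7c (0.95) and Mxra7 (0.95), and for Ltbp1 Kdelr3 (0.95), Cda (0.94) and Pard3 (0.94). Tgfb2, with its few UMIs, was nearest to Gm2381 (0.94), Dnhd1 (0.93) and Chrd (0.92). Tgfbr2 had no close match: its nearest were Nrp1 (0.69), Gadd45g (0.68) and Mxd4 (0.66).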

How the data were processed

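Each deposited file held raw UMI counts, as whole numbers without scaling, that the authors obtained from Cell Ranger, whose version is 6.1.0 per the file headers and 3.1.0 per the submitters' processing notes. The genome build, the annotation and any later filter on cells are not given in the sources used here. From these counts, cells with at least 200 genes and at most 20% mitochondrial UMIs were taken, and doublets were removed by Scrublet score, taking the highest-ranked cells at a rate that grows with the number of barcodes (1148 and 1322 cells). Free RNA was not subtracted. Counts were summed per library and class and divided by the class total to give CPM. Genes needed 100 UMIs in 1 library. Cells of more than 1 class were counted in each. The ratio step was checked on simulated counts. The work used scanpy 1.11.5 and its Scrublet, with pandas 2.3.3, numpy 2.4.6 and scipy 1.17.1 under Python 3.11.15.

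The text names all members, in each pathway list and class the 2 highest and 2 lowest ratios and any past 1.5-fold, and 3 nearest genes per member. The members, lists, markers and cell states were chosen with earlier results of these data known. The macrophages and T cells without fibroblast-marker or Hmga2 UMIs, the monocyte, NK and T cell subset gates, the few pathway genes named outside the rule and the C1q minimum of 50 per 10000 were chosen after these data were seen. Alternatives covered doublets, scaling, filters and class rules. A macrophage state and a pathway gene are not reported here.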

Additional observations from a re-analysis of the deposited data

How the results depend on the processing

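No paired analysis was possible because each group had 1 library and the labels carry no replicate numbers, and leaving out a replicate would leave a group empty. In macrophages 4 members were past 1.5-fold. That number was 2 without doublet removal (Ltbp1 and Tgfb3 lost), 2 with every cell weighted equally (Ltbp1 and Tgfbi lost), 2 with a C1q minimum of 50 per 10000 (Tgfb3, at 0.58, and Tgfbi, at -0.42, lost), and 0 without cells that carried fibroblast-marker or Hmga2 UMIs (the last 2 chosen after seeing the data). In that last set Tgfbr3 (51 and 49 UMIs) and Ltbp1 (43 and 42 UMIs) had under 100 UMIs, so they could not be counted. Its Tgfbr3 ratio is the low end of the range given below. Tgfbi also fell short of 1.5-fold with Scrublet's own doublet threshold (-0.50) and a C1q minimum of 20 per 10000 (-0.58). In T cells 1 member was past 1.5-fold. It was 0 without doublet removal, with Scrublet's own doublet threshold, with scaling by the median of ratios and with TMM scaling. The number was also 0 with cells of more than 1 class left out, and in T cells of 1 class without fibroblast-marker or Hmga2 UMIs. In both of these sets Tgfbr3 had under 100 UMIs in each library, so it could not be counted. In the stricter of these sets, chosen after seeing the data, the Tgfbr3 ratio was -0.58, from too few UMIs to give a direction. With at least 2 Cd3 UMIs per cell the 1 member past the fold in T cells was Ltbp1, at -0.80, in place of Tgfbr3. In tumour-like cells the number was 0 under all 11 alternatives run. TMM scaling lowered every macrophage log2 ratio by 0.14 and the median of ratios by 0.09; Tgfbi ranged from -0.81 to -0.35 and Tgfbr3 from 0.52 to 2.40 in macrophages over 12 settings, Ltbp1 from 0.37 to 1.63, Tgfb3 from 0.30 to 0.83, Tgfb1 from -0.52 to -0.21, Tgfbr1 from -0.19 to 0.22 and Smad7 from -0.01 (every cell weighted equally) to 0.22. Of the single ratios, 29 of 99 in macrophages, 7 of 90 in T cells and 4 of 99 in tumour-like cells moved by more than counting error, and 1 more in T cells reversed. Thinning to 5000 instead of 2000 UMIs moved 50 of 54 shares, and a narrower state moved 25 of 108 state levels. Depth limits Tgfb2 in every class, and Tgfb3, Ltbp1 and the subsets in T cells. Tumour, hairpin and library cannot be told apart with 1 library per group.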

Other observations

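Cells that met none of the 3 class rules, 1026 control and 1139 knockdown cells, also differed in Tgfbi, at 75.1 against 15.1 CPM (701 and 116 UMIs). The monocyte-gated cells lie among them, and the 3 monocyte markers, all detected, summed to 309 and 169.8 CPM. The 464 and 710 of these cells with 0 Ptprc UMIs, which were too shallow or had too much Lyz2 for the tumour-like class, had Tgfbi at 129 and 17.0 CPM, Tgfb1 at 102 and 49.2 CPM, and Xist at 117 and 32.1 CPM. Markers of other cells moved with these values: the monocyte markers, all detected, summed to 351 and 67.2 CPM, the 7 macrophage markers, all detected, to 467 and 303 CPM, the 3 endothelial markers, all detected, to 49.99 and 12.7 CPM, and the 3 leukocyte markers, with Ptprc at 0 by the choice of cells, to 2387 and 993 CPM. Their part in the differences was not tested. In the same cells Tgfbr3 was at 258 and 298 CPM and Tgfbr2 at 239.8 and 220.0 CPM, both with overlapping intervals. Over all cells of no class Tgfbr3 was past 1.5-fold higher, at 87.0 and 140 CPM, a log2 ratio of 0.69 (0.50 to 0.87). The share of all genes past 1.5-fold was not counted in those cells.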
